A study of Mus musculus with 15 samples.

Results

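In colon RNA of 15 mouse libraries, 2431 of 12917 tested genes (18.8%) set the WMW-H group apart from both other groups. For these genes all 5 WMW-H libraries lay above, or all 5 lay below, all 10 Control and AOM/DSS libraries. The direction was above for 1224 genes (9.48%) and below for 1207 genes (9.34%). Counts in the gene lists below are to be read beside these shares. Tested genes had at least 1 FPKM (fragment counts scaled by transcript length and library depth) in at least 5 libraries, out of 22063 genes in the table. The genes were thus chosen by their WMW-H values, so their WMW-H levels are given below as a description and without a test. A contrast is the mean log2(FPKM + 1) of WMW-H minus the average of the Control and AOM/DSS means.

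All groups were wild-type C57BL/6 mice. Control is the untreated group. AOM/DSS marks the colorectal cancer model, in which azoxymethane (AOM), a carcinogen, is combined with dextran sulfate sodium (DSS), which damages the colon lining. The third group is labelled WMW-H alone, and the series presents it as the treated arm of the model with Wumei Wan, a multi-herb decoction. Its dose, and the age and sex of the animals, are not given in the sources used here. The labels call the 5 libraries of a group replicates without saying that they came from separate animals, so p-values measure only the spread between these libraries. Libraries of the same group correlated at 0.992 to 0.995 and libraries of different groups at 0.939 to 0.972. Whether those of a group came from separate animals was not tested. The cell type is labelled as colon epithelium, and no isolation step is described.

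The colon lining renews from crypt stem cells into absorptive colonocytes, goblet cells and hormone-secreting cells, above a lamina propria of plasma cells, macrophages and fibroblasts. Injured gut epithelium secretes lectins of the regenerating islet-derived (Reg) family, some of which bind bacteria, and acute phase proteins such as serum amyloid A. Mucosal B cells gather in follicles, and their plasma cell descendants supply IgA, which is carried into the lumen.

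The mitochondrial share and a deviation related to GC content set the WMW-H libraries apart. Mitochondrially encoded genes took 8.21% ± 0.0893 of all FPKM in Control, 8.24% ± 0.0813 in AOM/DSS and 12.9% ± 1.38 in WMW-H (SD, n = 5), with replicate 3 of WMW-H highest at 15.3%. For GC content, each gene was taken as its log2 deviation from its own mean over all 15 libraries. The median deviation in the lowest 3 of 10 equal classes of transcript GC content was compared with that in the highest 3. Low minus high, it was 0.20 to 0.25 in WMW-H, -0.06 to 0.02 in Control and -0.24 to -0.18 in AOM/DSS. Genes of other organs set the other groups apart instead. Pancreatic genes took 7.18% of FPKM in Control, 2.21% in AOM/DSS and 3.38% in WMW-H, and male accessory gland genes 0.0220%, 0.628% and 0.0284%. The pancreatic list also holds Zg16, which is on the goblet cell list too and was abundant in every group, so its shares are not of pancreas alone. Colonocyte and goblet cell genes were present in every group, at 3.12% to 3.58% and 2.12% to 3.09% of FPKM by group mean. Each library held 16250000 to 21060000 fragments as read from the steps of its low values. Replicate 3 of WMW-H deviated from the rest of its group by 0.187 (root mean square, log2), against 0.138 to 0.159 in the other 14 libraries.

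Most of the separations were small. The median contrast was 0.39 for the genes above and -0.34 for the genes below, beside -0.01 for all tested genes. It exceeded 1 in size in 34 genes above and in 27 below, and stayed under 0.5 in 72.4% and 86.7%. Only 19 genes above and 9 below differed at least 2-fold from the nearer of the other groups. Only 4 of the genes above passed the expression filter through WMW-H alone. Of the genes below, 16 stood under 1 FPKM in all WMW-H libraries and passed through the other groups. The same rule set Control apart in 2951 genes and AOM/DSS in 4130, both more than WMW-H. In limma's test of the contrast over all genes, 7961 genes (61.6%) were called at an adjusted p of 0.05, 3734 higher (28.9%) and 4227 lower (32.7%).

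**Figure D1:**
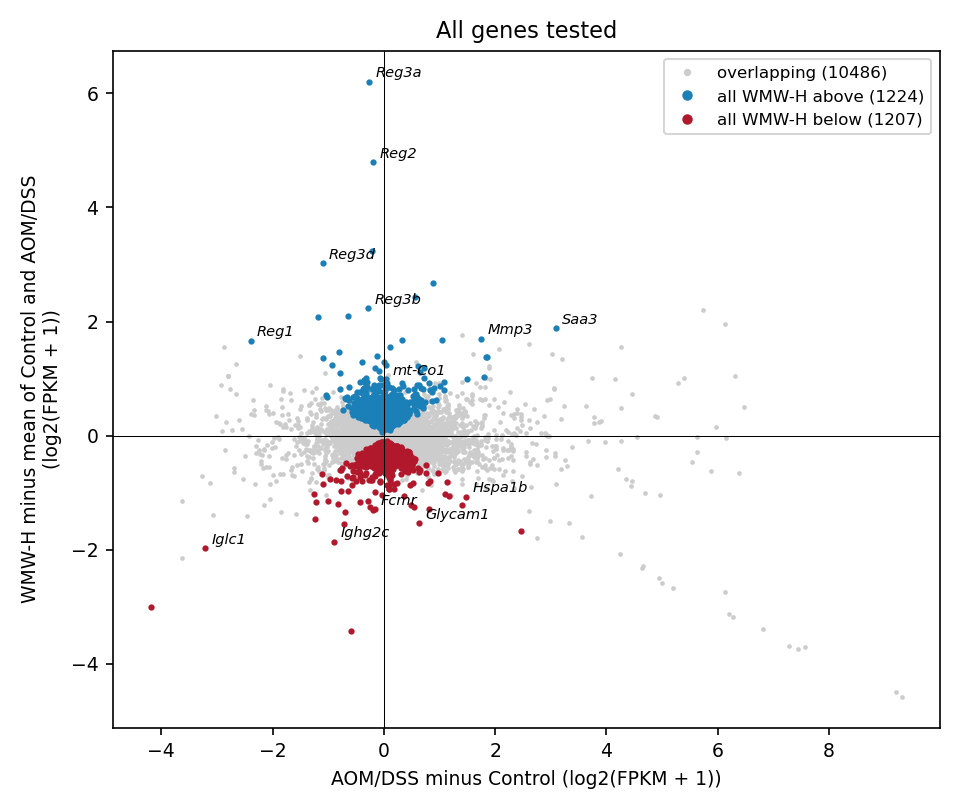
Each point is 1 of 12917 tested genes, placed by the difference of AOM/DSS from Control on the x axis and the contrast of WMW-H on the y axis, both in log2(FPKM + 1). The 1224 blue and 1207 red genes form 2 bands close to the line of no contrast, and the Reg genes Reg3a and Reg2 stand farthest above it.

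The size of the difference between AOM/DSS and Control does not use the WMW-H values, although the rule favours genes whose other groups lie close together. Its p-values do use them, since all 15 libraries share one estimate of the spread. This comparison called 66.1% of all tested genes, 45.5% as higher in AOM/DSS and 20.6% as lower (limma, adjusted p under 0.05). Of the 1224 genes above, 314 rose in AOM/DSS, 328 fell and 582 were not called. Of the 1207 genes below, 568 rose in AOM/DSS, 208 fell and 431 were not called. This split moved with the processing. With the medians of GC and length bins removed, a step chosen after seeing the data, it was 230 against 243 for the genes above and 176 against 186 for the genes below, so the excess of rises among the genes below was gone. With median-of-ratios size factors it was 232 against 470 for the genes above and 384 against 288 for the genes below, and with quantile normalization 251 against 480 and 385 against 250. With a common library total it was 290 against 248 and 653 against 210.

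Among named genes outside the antigen receptor loci, Reg3a, Reg2, Reg3d and Reg3b had the largest contrasts of those above. They lie with Reg1 and Reg3g in one cluster on chromosome 6. In RefSeq annotation of build GRCm38.p6 the 6 genes run from Reg3b at position 78370885 to the end of Reg3g at 78468874. All 6 lay above every other library, while Reg4, a family member outside this cluster, did not. The family was collected after its values had been seen. The starts of 4 genes are shown, from RefSeq promoters of build GRCm38.p6 with 250 bases before and 50 after the start of the gene, since the group moved together. Reg3a (chr6:78380459-78380758, plus strand), Reg2 (chr6:78404905-78405204, plus strand), Reg3d (chr6:78378816-78379115, minus strand) and Reg3g (chr6:78468825-78469124, minus strand) are written 5′ to 3′. Capitals mark TATAAA, the TATA-box letters, and CACCTG, a form of E-box, on either strand.
Reg3a: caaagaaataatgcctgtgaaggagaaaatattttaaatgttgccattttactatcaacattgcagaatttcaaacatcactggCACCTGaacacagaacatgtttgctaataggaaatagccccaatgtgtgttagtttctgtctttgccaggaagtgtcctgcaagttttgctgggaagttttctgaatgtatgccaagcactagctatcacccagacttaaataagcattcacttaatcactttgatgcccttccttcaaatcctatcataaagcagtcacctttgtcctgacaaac
Reg2: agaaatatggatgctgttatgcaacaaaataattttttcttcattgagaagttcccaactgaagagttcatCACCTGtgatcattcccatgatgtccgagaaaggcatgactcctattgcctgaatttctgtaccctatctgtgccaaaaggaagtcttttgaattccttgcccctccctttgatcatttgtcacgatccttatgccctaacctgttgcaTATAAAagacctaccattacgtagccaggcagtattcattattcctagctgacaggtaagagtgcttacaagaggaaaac
Reg3d: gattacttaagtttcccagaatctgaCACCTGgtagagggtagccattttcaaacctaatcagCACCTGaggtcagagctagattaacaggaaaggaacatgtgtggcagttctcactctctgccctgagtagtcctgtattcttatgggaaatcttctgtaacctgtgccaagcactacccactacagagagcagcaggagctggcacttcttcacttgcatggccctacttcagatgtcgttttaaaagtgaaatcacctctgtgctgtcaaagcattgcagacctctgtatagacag
Reg3g: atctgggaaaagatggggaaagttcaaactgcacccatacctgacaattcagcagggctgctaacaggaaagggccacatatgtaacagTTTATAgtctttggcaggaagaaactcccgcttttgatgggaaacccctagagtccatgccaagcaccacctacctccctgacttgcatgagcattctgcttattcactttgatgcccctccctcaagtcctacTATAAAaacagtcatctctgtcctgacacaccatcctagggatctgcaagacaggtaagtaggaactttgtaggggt
The letters CACCTG were found once in Reg3a, Reg2 and Reg3b and 2 times in Reg3d, and in neither Reg3g nor Reg1. TATAAA was found in Reg2, Reg3b, Reg3g and Reg1. Among 32851 RefSeq promoters of this length, 20.2% hold CACCTG and 13.6% hold TATAAA. Both motifs were chosen after the sequences had been read, and a match is not a sign of binding.

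Reg3a, a secreted C-type lectin, was low in both other groups and abundant in WMW-H. Its FPKM was 1.78, 1.67, 2.23, 2.07 and 2.2 in the Control libraries, 1.32, 2.28, 1.28, 1.49 and 1.16 in AOM/DSS and 202, 213, 184, 196 and 205 in WMW-H. The lowest WMW-H library thus stood far above the highest of the others, and the WMW-H mean was 101-fold the Control mean and 133-fold the AOM/DSS mean. Reg2, known for its production in regenerating pancreatic islets, was at 24.9, 24.1, 23.6, 22.95 and 21.3 FPKM in Control, 18.9, 19.3, 22.7, 19.5 and 21.6 in AOM/DSS and 627, 669, 559.7, 653 and 661 in WMW-H. Its Control and AOM/DSS ranges overlapped, and the WMW-H mean was 27.1-fold that of Control and 31.1-fold that of AOM/DSS. Both genes were slightly lower in AOM/DSS than in Control, with log2 differences of -0.27 for Reg3a and -0.19 for Reg2 (limma adjusted p = 0.017 and 0.00692).

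Reg3d showed 10.2, 10.4, 10.5, 9.56 and 10.04 FPKM in Control, 3.41, 4.87, 3.92, 4.7 and 4.24 in AOM/DSS and 57.8, 57.8, 66.3, 61.4 and 60.6 in WMW-H. Its AOM/DSS libraries were all below the Control libraries (log2 difference -1.10, limma adjusted p = 1.44e-10), so that the groups formed 3 levels without overlap. Reg3b, which binds mainly Gram-negative bacteria, measured 171, 182, 180.4, 183 and 172 FPKM in Control, 151, 141, 147, 147 and 146 in AOM/DSS and 778, 812, 674, 773 and 783 in WMW-H, 4.29-fold and 5.22-fold the other means. Reg3g, the bactericidal lectin directed at Gram-positive bacteria, measured 53.6, 59.3, 59.3, 57.5 and 56.8 in Control, 57.3, 60.2, 60.3, 59.9 and 57.5 in AOM/DSS and 149, 144, 117, 140.2 and 145 in WMW-H. Replicate 3 was the lowest WMW-H library for both lectins and still stood above all 10 others. Control and AOM/DSS were not told apart in Reg3g (log2 difference 0.04, limma adjusted p = 0.475).

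Reg1, named for pancreatic islet regeneration and also made by acinar cells, behaved differently between the reference groups. It stood at 224, 239, 231, 236 and 224 FPKM in Control, 47.02, 43.5, 41.3, 43.6 and 40.2 in AOM/DSS and 324, 341, 284, 325 and 326 in WMW-H. It fell in AOM/DSS by 2.40 on the log2 scale (limma adjusted p = 2.09e-17), and the WMW-H mean was 1.39-fold that of Control. Reg4 averaged 71.7 ± 2.33 FPKM in Control, 191 ± 5.44 in AOM/DSS and 154 ± 10.4 in WMW-H (SD, n = 5), between the other groups. Beside these values, the summed pancreatic list was highest in Control, where its range was 7.11% to 7.25% of FPKM against 3.33% to 3.41% in WMW-H. The small-intestinal enterocyte list took 0.162%, 0.1002% and 0.1702% of FPKM in Control, AOM/DSS and WMW-H. Reg1 itself is in both lists. Of 32 tested pancreatic genes, Reg1 and Zg16 lay above and Pnliprp2, a lipase, below. Whether cells of either kind took part in the Reg levels was not tested.

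**Figure D2:**
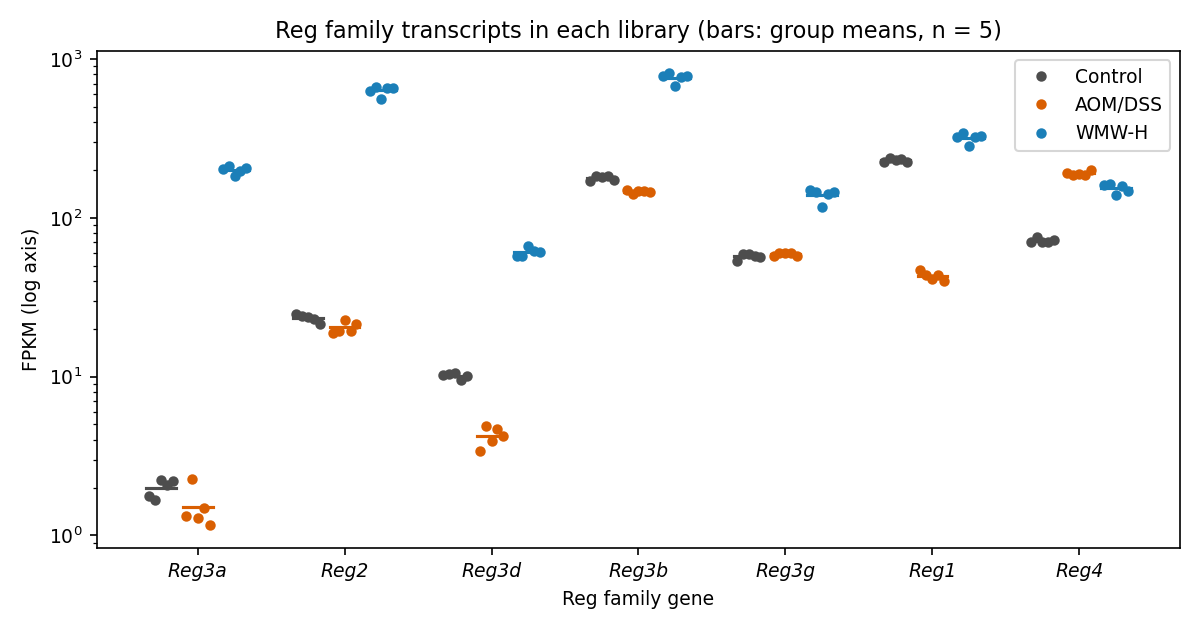
FPKM on a log axis of 7 Reg genes in each of the 15 libraries, with a bar at each group mean (n = 5). All blue WMW-H points lie above the grey Control and orange AOM/DSS points in the 6 clustered genes, whereas in Reg4 WMW-H lies between the other groups.

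Of 25 tested acute phase and epithelial defence genes, 8 lay above and none below, with a median contrast of 0.38. Summed, the list took 1.302% of FPKM in Control, 0.630% in AOM/DSS and 0.964% in WMW-H, so by total level WMW-H lay between the groups and under Control. Besides 4 Reg genes, those above were Saa3, C3, Hp and Nox1. Saa3, a serum amyloid A made by epithelium and macrophages, measured 3.12, 3.72, 3.61, 1.73 and 2.21 FPKM in Control, 28.2, 36.01, 28.8, 34.2 and 30.6 in AOM/DSS and 37.1, 44.7, 36.8, 39.2 and 42.1 in WMW-H. Its separation from AOM/DSS was narrow, since the highest AOM/DSS library lay just under the lowest WMW-H library, and it rose in AOM/DSS by 3.10 on the log2 scale (limma adjusted p = 7.23e-13). Among 19 complement genes, 7 lay above and 2 below (median contrast 0.26), while their summed share was 0.101%, 0.136% and 0.120%, highest in AOM/DSS. C3, the central component of the cascade, averaged 37.4 ± 0.761 FPKM in Control, 69.4 ± 1.58 in AOM/DSS and 78.03 ± 5.22 in WMW-H (SD, n = 5), the order and error used for all means below. C1s1, a protease of the classical pathway, averaged 20.7 ± 0.585, 32.6 ± 2.23 and 41.2 ± 3.04, and C4b, its substrate, 18.8 ± 0.548, 31.3 ± 0.926 and 34.7 ± 1.02. For these 3 genes AOM/DSS was also above Control, and the WMW-H mean was 1.26-fold that of AOM/DSS for C1s1, 1.12-fold for C3 and 1.11-fold for C4b. The complement genes below were Cfb, at 45.01 ± 2.47, 44.1 ± 1.02 and 39.05 ± 1.38 FPKM, and Cfd. Itih4, an inter-alpha-trypsin inhibitor heavy chain of the acute phase, was low throughout, at 0.615, 0.448, 0.502, 0.517 and 0.457 FPKM in Control, 0.372, 0.385, 0.353, 0.548 and 0.307 in AOM/DSS and 2.93, 2.91, 2.39, 3.25 and 2.53 in WMW-H. It passed the expression filter through WMW-H alone, so a separation there was required for it to be tested.

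Matrix genes of fibroblasts lay above in 4 of 27 tested genes (14.8%, beside 9.48% of all tested genes) and below in none (median contrast 0.33). Mmp3, stromelysin-1, a matrix-degrading protease, measured 0.42, 0.35, 0.278, 0.682 and 0.8 FPKM in Control, 3.98, 3.85, 4.25, 4.21 and 3.87 in AOM/DSS and 7.65, 7.93, 8.18, 8.41 and 7.39 in WMW-H. The 3 groups stepped up without overlap. Timp1, an inhibitor of such proteases, followed with means of 1.24 ± 0.319, 6.903 ± 0.81 and 9.91 ± 1.03 FPKM (SD, n = 5). Decorin (Dcn), a collagen-binding proteoglycan, behaved otherwise, with 62.4, 62.04, 62.5, 67.1 and 63.04 FPKM in Control, 60.1, 60.7, 60.9, 59.6 and 55.3 in AOM/DSS and 113, 113, 119, 113 and 111 in WMW-H. Its reference groups lay close together, and the WMW-H mean was 1.796-fold and 1.92-fold theirs. Lumican (Lum), a related proteoglycan, averaged 8.196 ± 0.4503, 6.07 ± 0.223 and 12.4 ± 0.518. Summed over the list, fibroblast genes took 0.117%, 0.214% and 0.199% of FPKM in Control, AOM/DSS and WMW-H, highest in AOM/DSS. In bulk RNA, a change in the number of cells of a type and a change in RNA per cell cannot be told apart. Smooth muscle genes lay above in 7 of 20 and below in 3. Mylk, myosin light chain kinase, averaged 68.9 ± 2.67, 56.9 ± 2.08 and 88.98 ± 6.38 FPKM, and Tpm1, a tropomyosin, 364 ± 3.91, 373 ± 5.39 and 494 ± 9.81. Desmin (Des), the muscle intermediate filament, lay below at 223 ± 3.82, 232 ± 5.23 and 188 ± 2.997. Endothelial genes lay above in 3 of 19 (15.8%, beside 9.48% of all tested genes). Among them were Lyve1 of lymphatic vessels (9.71 ± 0.518, 9.19 ± 0.617 and 14.6 ± 1.09) and the angiopoietin receptor Tek (2.43 ± 0.185, 2.87 ± 0.222 and 4.08 ± 0.4902). Summed, the endothelial list took 0.0288% of FPKM in Control, 0.0432% in AOM/DSS and 0.0364% in WMW-H, highest in AOM/DSS.

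Of 20 tested macrophage genes, Fcgr3 and Mrc1 lay above (10% of the list) and Marco below (5%), no more than about the 9.48% and 9.34% of all tested genes. Marco, a scavenger receptor, measured 1.253, 1.52, 1.012, 1.22 and 1.55 FPKM in Control, 0.706, 0.668, 0.523, 0.347 and 0.526 in AOM/DSS and 0.052, 0, 0.032, 0.031 and 0.063 in WMW-H. It reached 1 FPKM only in Control, and in WMW-H a few fragments set its level. Ms4a6c, a membrane-spanning protein of the Ms4a family seen in myeloid cells, measured 2.44, 2.21, 1.97, 2.55 and 2.29 FPKM in Control, 2.24, 2.01, 2.21, 2.299 and 2.84 in AOM/DSS and 7.78, 6.39, 7.07, 7.56 and 6.7 in WMW-H. The reference groups overlapped fully, and the WMW-H mean was 3.098-fold and 3.06-fold theirs. Of its relatives, looked up after these values had been seen, Ms4a6d averaged 2.01 ± 0.345, 3.995 ± 1.04 and 7.73 ± 1.005 FPKM in Control, AOM/DSS and WMW-H (SD, n = 5). Ms4a6b averaged 3.05 ± 0.457, 3.03 ± 0.194 and 5.73 ± 0.498, and Ms4a4d 4.44 ± 0.8402, 3.82 ± 0.518 and 8.24 ± 0.771. Together with Ms4a7, at 5.297 ± 0.216, 7.53 ± 0.258 and 11.7 ± 0.711, these 4 lay above too. The family did not do so as a whole, since Ms4a1, a B cell gene, overlapped with a negative contrast. The Ms4a paralogs resemble one another, so reads may be divided between them. The chemokine Ccl8 averaged 32.2 ± 0.978, 36.8 ± 2.15 and 60.9 ± 7.01. The macrophage list as a whole took 0.0820%, 0.161% and 0.129% of FPKM, highest in AOM/DSS.

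Il33, an alarmin of epithelium and stroma, Anxa1, Areg and Ereg were the 4 of 14 fetal-like and YAP target genes above (none below, median contrast 0.40). Summed, this list took 0.117% of FPKM in Control, 0.171% in AOM/DSS and 0.148% in WMW-H, so by total level WMW-H lay between the groups. Il33 measured 2.16, 2.06, 2.04, 2.699 and 1.999 FPKM in Control, 5.35, 5.12, 6.34, 5.63 and 6.28 in AOM/DSS and 6.98, 9.3, 8.63, 7.1 and 7.43 in WMW-H. The EGF receptor ligand amphiregulin (Areg) measured 11.3, 12.8, 11.7, 10.9 and 10.5 in Control, 15.6, 17.3, 17.4, 16.8 and 17.9 in AOM/DSS and 18.5, 19.9, 20.5, 20.2 and 21.1 in WMW-H. Both rose in AOM/DSS over Control (log2 differences 1.08 and 0.53, limma adjusted p = 4.23e-09 and 7.73e-08), with the WMW-H means at 1.37-fold and 1.18-fold those of AOM/DSS. After GC and length correction, described further on, none of the 14 lay apart. Hoxd13, a homeobox gene of the hindgut, averaged 0.166 ± 0.0405, 3.24 ± 0.396 and 4.75 ± 0.499 FPKM, likewise stepping up across the groups. Neurotensin (Nts), a gut hormone, was high in Control and lower in AOM/DSS, at 12.6, 11.3, 11.8, 12.2 and 11.98 FPKM in the former and 5.401, 5.07, 4.84, 5.76 and 4.24 in the latter, and highest in WMW-H at 19.6, 24.4, 23.5, 20.4 and 21.5. Chromogranin B (Chgb), of hormone granules, averaged 76.6 ± 1.63, 61.4 ± 0.594 and 105 ± 7.16, and Tph1, which starts serotonin synthesis, 15.3 ± 1.65, 12.5 ± 1.66 and 20.99 ± 1.64. These were the 3 of 18 enteroendocrine genes above (16.7%, beside 9.48% of all tested genes), with none below.

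Mitochondrially encoded genes were the list most fully above, 11 of 13 tested and none below, with a median contrast of 0.60 against -0.01 over all genes. The exceptions were mt-Atp6 and mt-Atp8, which overlapped. mt-Co1, a catalytic subunit of cytochrome oxidase, measured 12252, 12014, 12078, 12155 and 12137 FPKM in Control, 12606, 12317, 12409, 12550.5 and 12541 in AOM/DSS and 23325, 23725, 28478, 23893 and 23263 in WMW-H. Its WMW-H mean was 2.02-fold and 1.97-fold the others, replicate 3 highest. All AOM/DSS libraries lay slightly above all Control libraries (log2 difference 0.04). Limma, whose estimate of the spread also takes in the WMW-H libraries, did not call this difference (limma adjusted p = 0.388). mt-Nd3, a complex I subunit, averaged 607 ± 57.1, 352 ± 32.2 and 986 ± 67.4, mt-Nd2 1286 ± 33.02, 1295 ± 23.1 and 2197 ± 372, and mt-Nd6, whose gene lies on the opposite strand, 613 ± 20.9, 613 ± 18.5 and 1049.7 ± 179. Nuclear genes of oxidative phosphorylation did not follow, with 2 of 28 above, 5 below and a median contrast of 0.03. With the mitochondrial genes left out and the rest rescaled, an alternative chosen after seeing the data, 1549 genes lay above and 787 below. All 787 were among the 1207.

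Ribosomal protein genes lay above in 8 of 30 and below in 2 (median contrast 0.14). Rpl5, of the large subunit, averaged 268 ± 10.5, 274 ± 2.899 and 405 ± 10.4 FPKM, Rpl11 333 ± 8.09, 358 ± 7.12 and 499.7 ± 25.5, Rpl4 436 ± 4.88, 459.8 ± 5.57 and 588 ± 7.98, and Rpl39 77.3 ± 9.69, 75.7 ± 7.59 and 118 ± 8.96. Rpl8 went the other way at 767 ± 12.1, 885 ± 9.73 and 663 ± 59.01, as did Rplp0 at 1234 ± 9.35, 1528 ± 26.4 and 1177 ± 44.2. Many ribosomal protein genes have processed pseudogene copies, so their levels carry that uncertainty. Transcript GC was 42.7% in Rpl5 and 52.9% in Rpl11 against 58.3% in Rpl8 and 52.9% in Rplp0. With the medians of GC and length bins removed, 10 of the 30 lay above and 2 below (median contrast 0.11). Summed, the list took 3.16%, 3.73% and 3.55% of FPKM. The AOM/DSS range of 3.67% to 3.81% overlapped the WMW-H range of 3.29% to 3.70%. Shares are of all FPKM, so the larger mitochondrial share in WMW-H lowers the other shares there.

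On the side below, B cell genes came to 9 of 14 below, none above and a median contrast of -0.64. Fcmr, the receptor for IgM, measured 4.32, 3.55, 3.97, 4.54 and 3.74 FPKM in Control, 3.23, 3.15, 3.18, 4.25 and 3.62 in AOM/DSS and 1.16, 0.613, 0.917, 1.101 and 0.992 in WMW-H. Cd79b, a signalling chain of the B cell receptor, measured 8.36, 10.1, 8.64, 8.94 and 8.94 in Control, 8.55, 10.02, 8.67, 8.56 and 7.87 in AOM/DSS and 3.84, 3.73, 3.04, 4.08 and 4.21 in WMW-H. Its partner Cd79a measured 15.1, 15.8, 18.6, 17.3 and 18.4 in Control, 16.6, 14.2, 14.8, 13.9 and 15.8 in AOM/DSS and 7.26, 7.48, 6.96, 8.51 and 7.75 in WMW-H. In all 3 genes the reference groups overlapped and WMW-H sat at 0.238 to 0.446 of the Control mean. Ighd, the IgD constant region of naive B cells, averaged 5.85 ± 0.475, 4.79 ± 0.972 and 1.69 ± 0.552 (SD, n = 5). Fcer2a, Cxcr5, Spib and Blk were among the others below, whereas Ms4a1, Cd22, Fcrla, Vpreb3 and Ighm overlapped with negative contrasts. Summed, the list took 0.0177%, 0.0245% and 0.0113% of FPKM in Control, AOM/DSS and WMW-H, with no overlap between the ranges. Glycam1, a ligand for lymphocyte homing made by high endothelial venules, averaged 3.29 ± 0.469 FPKM in Control, 5.697 ± 1.04 in AOM/DSS and 0.903 ± 0.615 in WMW-H. T cell genes lay below in 3 of 16, Cd5, Cd3d and Lck, and above in none. After GC and length correction, 0 of the 16 lay below.

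Plasma cell and IgA transport genes lay below in 5 of 20 and above in none (median contrast -0.37). Ighg2c, the IgG2c constant region, measured 261, 253, 254, 262 and 264 FPKM in Control, 140.4, 142, 139, 139 and 136 in AOM/DSS and 48.8, 52.6, 54.8, 50.2 and 52.0 in WMW-H. The groups stepped down without overlap, WMW-H at 0.1998 of Control and 0.371 of AOM/DSS. Iglc1, a lambda light chain constant region, stood at 575, 613, 529.5, 615 and 576 in Control, 58.2, 67.0, 65.2, 58.5 and 60.8 in AOM/DSS and 47.3, 48.7, 47.4, 50.5 and 44.8 in WMW-H. Here the step lay between Control and AOM/DSS, and WMW-H was only slightly under AOM/DSS. Igha, of IgA, averaged 5016 ± 58.4, 2949.6 ± 55.1 and 2539 ± 98.7, and Derl3, of the secretory cell's endoplasmic reticulum, 6.93 ± 0.969, 5.29 ± 0.589 and 3.397 ± 0.675. Immunoglobulin variable segments went both ways, with 26 above and 22 below of 164 tested, contrasts running from -3.43 to 3.24. Their summed share was 1.001%, 0.718% and 0.666% of FPKM. Near-identical segments share reads, so single segments are uncertain.

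MHC class II genes lay below in 5 of 12 and above in 1 (median contrast -0.60). H2-DMb2, which helps load peptides, measured 5.804, 5.24, 5.93, 6.5 and 6.13 FPKM in Control, 4.75, 6.51, 5.88, 8.403 and 6.76 in AOM/DSS and 2.76, 2.8, 3.32, 2.204 and 3.63 in WMW-H. H2-Ob, a B cell modulator of the same step, averaged 1.92 ± 0.282, 1.61 ± 0.278 and 1.13 ± 0.125. Neither was called between Control and AOM/DSS (limma adjusted p = 0.492 and 0.0836). The invariant chain Cd74 averaged 1047 ± 12.1, 491 ± 7.24 and 398 ± 10.9, and H2-Ab1 325 ± 6.22, 149.9 ± 3.18 and 139 ± 5.15. Both had fallen in AOM/DSS against Control (log2 differences -1.09 and -1.11, limma adjusted p = 1.40e-17 and 2.85e-16), and the further distance of WMW-H from AOM/DSS was small. The protease cathepsin S (Ctss) lay above at 158 ± 4.52, 137 ± 1.95 and 188 ± 13.7.

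Adipocyte genes lay below in 11 of 15 tested, with a median contrast of -0.65. Perilipin 1 (Plin1), which coats fat droplets, measured 11.7, 11.5, 10.8, 13.3 and 14.1 FPKM in Control, 8.54, 8.07, 9.28, 10.3 and 8.19 in AOM/DSS and 4.16, 4.29, 4.09, 4.21 and 3.69 in WMW-H. Adipsin (Cfd), also complement factor D, measured 132, 145, 147, 142 and 136 in Control, 77.6, 80.6, 81.2, 76.7 and 78.4 in AOM/DSS and 52.03, 48.3, 37.7, 44.4 and 46.4 in WMW-H. Both genes stepped down from Control through AOM/DSS to WMW-H without overlap. Cidec, another droplet protein, averaged 36.7 ± 2.23, 31.1 ± 1.49 and 19.3 ± 1.47, and resistin (Retn) 7.66 ± 1.15, 6.19 ± 0.753 and 3.64 ± 0.943. Thrsp, a regulator of lipid synthesis, was at 13.3 ± 0.847, 19.9 ± 1.85 and 6.34 ± 0.934, with AOM/DSS above Control (limma adjusted p = 2.14e-05). Pparg, which drives fat cell formation and is also active in colonocytes, was the only gene of the list above, at 53.3 ± 2.12, 41.5 ± 0.843 and 59.01 ± 1.63. The list's summed share was 0.124%, 0.114% and 0.0805% of FPKM in Control, AOM/DSS and WMW-H, so adipocyte genes were detected in each group. How much fat was attached to each sample was not tested.

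**Figure D3:**
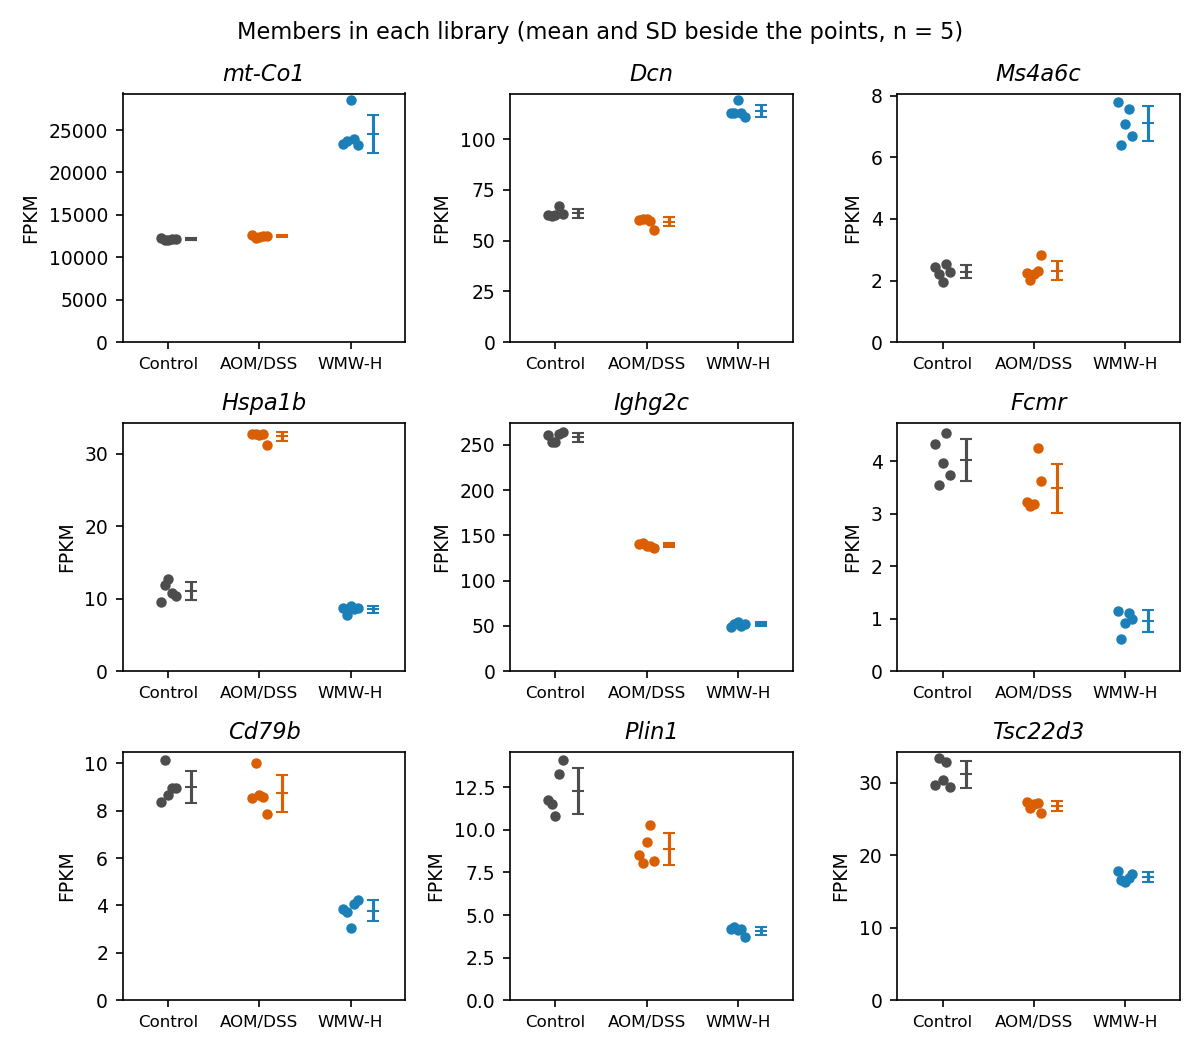
FPKM on linear axes from 0 for 9 genes in each of the 15 libraries, with the mean and SD beside the points (n = 5). WMW-H lies above both other groups for mt-Co1, Dcn and Ms4a6c and below both for the other 6 genes, and no WMW-H point overlaps another group.

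Heat shock chaperones lay below in 7 of 16 and above in 2 (median contrast -0.25). Summed, however, they took 0.258% of FPKM in Control, 0.407% in AOM/DSS and 0.277% in WMW-H, so the list's total in WMW-H lay above that in Control. The inducible HSP70 genes Hspa1a and Hspa1b lie close together on chromosome 17, and their promoters differ at 4 of 300 bases. That of Hspa1a (RefSeq, GRCm38.p6, chr17:34972107-34972406, minus strand) is shown with a pair of heat shock element half-sites, GAANNTTC, in capitals. Of all RefSeq promoters of this length, 7.9% hold these letters, which read the same on both strands.
Hspa1a: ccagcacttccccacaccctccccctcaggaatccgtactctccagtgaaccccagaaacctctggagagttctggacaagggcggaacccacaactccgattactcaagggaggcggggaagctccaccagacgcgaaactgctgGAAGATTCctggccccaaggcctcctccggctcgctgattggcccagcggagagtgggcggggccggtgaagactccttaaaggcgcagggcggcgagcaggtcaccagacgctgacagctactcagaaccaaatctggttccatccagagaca
Hspa1b measured 9.61, 11.9, 12.7, 10.8 and 10.3 FPKM in Control, 32.7, 32.8, 32.5, 32.7 and 31.2 in AOM/DSS and 8.73, 7.704, 8.98, 8.59 and 8.75 in WMW-H. Hspa1a measured 6.22, 5.87, 5.29, 7.05 and 6.22 in Control, 14.5, 16.3, 15.2, 14.9 and 14.04 in AOM/DSS and 4.44, 3.66, 3.85, 4.63 and 4.12 in WMW-H. Both rose in AOM/DSS over Control (log2 differences 1.47 and 1.17, limma adjusted p = 5.77e-13 and 9.12e-11) and in WMW-H stood just under Control. As near-identical copies they share reads and are not independent. Their co-chaperone Dnajb1 averaged 21.6 ± 1.22, 30.3 ± 0.322 and 17.3 ± 0.904. The mitochondrial chaperonins went the other way, Hspd1 at 102 ± 3.78, 102 ± 5.37 and 133 ± 4.51 and Hspe1 at 50.1 ± 4.35, 60.4 ± 3.48 and 73.2 ± 3.24. Immediate early genes lay below in 7 of 26 and above in 1 (median contrast -0.15). Summed, they took 0.145% of FPKM in Control, 0.189% in AOM/DSS and 0.147% in WMW-H, so the WMW-H total was close to that of Control. Egr1, a transcription factor induced within minutes of a stimulus, averaged 10.2 ± 0.516, 11.96 ± 0.8396 and 7.31 ± 0.417, and Klf6, the one above, 33.9 ± 0.617, 31.97 ± 1.14 and 39.99 ± 0.957. Both lists respond to handling, and the part of tissue handling was not tested.

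Glucocorticoid targets lay below in 3 of 13 and above in none. Summed, the list took 0.129% of FPKM in Control, 0.184% in AOM/DSS and 0.129% in WMW-H, so by total level WMW-H was not below Control. Tsc22d3, which encodes GILZ, measured 29.7, 33.5, 30.4, 32.9 and 29.5 FPKM in Control, 27.3, 26.5, 27.1, 27.2 and 25.8 in AOM/DSS and 17.8, 16.5, 16.3, 16.9 and 17.5 in WMW-H. Glutamine synthetase (Glul) averaged 222 ± 6.66, 294 ± 6.15 and 190.3 ± 5.57, and the kinase Sgk1 47.2 ± 1.88, 53.9 ± 2.76 and 41.99 ± 1.68. Glul and Sgk1 rose in AOM/DSS while Tsc22d3 fell there (limma adjusted p = 3.21e-10, 4.56e-04 and 1.75e-04). Clock genes lay below in 4 of 18 and above in 1. The output factors Dbp and Tef averaged 42.1 ± 2.62, 20.9 ± 0.907 and 17.3 ± 2.01 for Dbp and 30.8 ± 1.41, 22.8 ± 1.22 and 16.5 ± 0.513 for Tef. The repressor Per2 averaged 4.63 ± 0.325, 3.13 ± 0.163 and 2.3 ± 0.151. Arntl (BMAL1), the activator that cycles opposite to them, was the one above, at 3.803, 4.27, 4.04, 4.15 and 4.61 in Control, 6.33, 7.42, 6.77, 6.27 and 6.73 in AOM/DSS and 8.79, 7.91, 8.22, 9.64 and 8.76 in WMW-H. The hour of tissue collection is not given in the sources used here, and its part was not tested.

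Fatty acid synthesis genes lay below in 4 of 20 and above in none (median contrast -0.16). Summed, however, the list took 0.168% of FPKM in Control, 0.234% in AOM/DSS and 0.168% in WMW-H, so its total in WMW-H was that of Control. Fatty acid synthase (Fasn) measured 71.6, 72.9, 74.3, 72.5 and 71.4 FPKM in Control, 103, 105, 106, 106 and 102 in AOM/DSS and 50.4, 48.4, 46.4, 47.9 and 49.2 in WMW-H. Its regulator Srebf1 averaged 30.2 ± 1.74, 39.4 ± 0.865 and 24.9 ± 1.38, ATP citrate lyase (Acly) 96.2 ± 1.59, 99.5 ± 1.45 and 80.5 ± 1.37, and Acsl1, which activates fatty acids, 14.9 ± 0.767, 14.97 ± 0.584 and 12.96 ± 0.325. Cholesterol synthesis genes went both ways, above in 8 of 22 and below in 5 (median contrast 0.06). The sterol methyl oxidase Msmo1 averaged 101 ± 3.54, 74.7 ± 1.06 and 128 ± 7.69, lanosterol demethylase Cyp51 56.3 ± 0.969, 46.4 ± 1.196 and 72.4 ± 1.19, and Hmgcs1, which makes HMG-CoA, 133 ± 1.296, 107 ± 2.71 and 154 ± 4.22. Their regulator Srebf2 lay below at 80.7 ± 1.53, 86.1 ± 2.42 and 67.0 ± 2.12, as did Fdps at 189.9 ± 5.01, 164 ± 4.88 and 138 ± 8.04. After GC and length correction, 3 cholesterol genes lay above and 1 below. Glycolysis and hypoxia genes lay below in 9 of 23 and above in 2, and in 4 and 0 after that correction. Pyruvate carboxylase (Pcx), which feeds the citrate cycle, averaged 29.5 ± 0.804, 33.6 ± 1.75 and 15.9 ± 0.752.

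Antioxidant genes under NRF2 lay above in 7 of 20 and below in 3 (median contrast 0.25). Summed, the list took 0.298% of FPKM in Control, 0.361% in AOM/DSS and 0.347% in WMW-H. By total level WMW-H thus lay between the groups and under AOM/DSS. Sulfiredoxin (Srxn1) measured 47.8, 47.9, 48.01, 48.6 and 49.1 FPKM in Control, 48.1, 49.3, 51.5, 50.5 and 48.8 in AOM/DSS and 71.8, 69.9, 67.2, 68.2 and 71.9 in WMW-H. Gclc, the catalytic subunit of the rate-limiting enzyme of glutathione synthesis, averaged 22.2 ± 0.728, 24.1 ± 1.03 and 32.99 ± 0.699, and the carbonyl reductase Cbr3 36.4 ± 1.89, 35.6 ± 2.76 and 50.9 ± 2.903. The glutathione transferase Gstm1 lay below at 246 ± 2.199, 263 ± 8.21 and 188 ± 6.098. Cytochrome P450 genes went both ways, 4 above and 4 below of 19, and 1 and 2 after GC and length correction. Cyp2c65 and the aldo-keto reductase Akr1c13 lay above, at 84.2 ± 2.04, 40.3 ± 1.22 and 95.8 ± 3.16 for Cyp2c65 and 102 ± 4.09, 79.01 ± 2.74 and 124 ± 6.35 for Akr1c13. Both fell in AOM/DSS against Control (log2 differences -1.05 and -0.36, limma adjusted p = 2.71e-15 and 1.45e-07), with WMW-H above Control. Cyp2e1 and Cyp2s1 lay below, at 28.6 ± 0.864, 24.5 ± 0.723 and 15.04 ± 1.21 for Cyp2e1 and 57.1 ± 1.23, 38.03 ± 1.89 and 27.6 ± 1.17 for Cyp2s1.

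The series concerns the axis from IDO1, which breaks down tryptophan to kynurenine, to the aryl hydrocarbon receptor (AHR). Ido1 was not set apart. It measured 9.87, 10.03, 8.48, 8.72 and 9.403 FPKM in Control, 2.28, 2.94, 3.82, 4.07 and 3.52 in AOM/DSS and 7.53, 7.51, 6.38, 6.23 and 6.54 in WMW-H, so that WMW-H lay between the other groups. Ahr overlapped as well, at 3.78 ± 0.233, 4.51 ± 0.108 and 4.15 ± 0.478. Among 6 tested AHR genes, only Nqo1, which NRF2 also controls, lay above, at 28.7, 30.6, 29.4, 27.1 and 31.7 in Control, 23.1, 22.04, 22.6, 23.6 and 23.8 in AOM/DSS and 36.4, 34.8, 35.1, 36.8 and 39.3 in WMW-H. After GC and length correction it no longer did. Tiparp, a target, averaged 5.05 ± 0.452, 3.21 ± 0.375 and 4.27 ± 0.293. The receptor's repressor Ahrr had all WMW-H libraries above the rest but too little signal to be tested, at 0.388, 0.471, 0.398, 0.281 and 0.26 FPKM in Control, 0.274, 0.537, 0.328, 0.281 and 0.237 in AOM/DSS and 0.68, 0.814, 0.756, 0.721 and 0.617 in WMW-H. Cyp1a1, the classic target, was also under the filter, at 0.321 ± 0.116, 0.154 ± 0.0596 and 0.234 ± 0.0829. Of 8 tested genes on the kynurenine pathway list, 3 lay below and none above. The 3 are not enzymes that make or break down kynurenine, and no such enzyme on the list lay apart. They were the amino acid transporter pair Slc3a2 (50.9 ± 2.61, 67.8 ± 2.79 and 44.6 ± 1.39) and Slc7a5 (10.8 ± 0.377, 13.2 ± 0.6705 and 9.498 ± 0.5299), and the tryptophanyl-tRNA synthetase Wars1 (79.9 ± 1.81, 74.9 ± 2.98 and 67.2 ± 2.33). After GC and length correction, only Slc3a2 of these stayed below all other libraries.

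Genes of the absorptive colonocyte lay below in 6 of 30 and above in 1, with a list median of 0.01. Summed, the list took 3.578%, 3.122% and 3.225% of FPKM in Control, AOM/DSS and WMW-H. By total level WMW-H thus lay between the other groups, unlike in the genes below. The sodium-proton exchanger Slc9a3 measured 107, 105, 103, 103 and 105 FPKM in Control, 67.2, 66.2, 64.95, 68.8 and 63.9 in AOM/DSS and 51.2, 50.8, 50.2, 49.8 and 51.4 in WMW-H. The chloride-bicarbonate exchanger Slc26a3 averaged 139 ± 4.56, 86.7 ± 1.23 and 78.2 ± 1.56, and the water channels Aqp4 77.5 ± 1.59, 45.4 ± 1.31 and 39.8 ± 1.97 and Aqp8 255 ± 4.49, 201 ± 4.82 and 162 ± 20.4. Selenbp1, a methanethiol oxidase, averaged 723 ± 13.8, 505 ± 4.18 and 419 ± 4.596. All 5 fell in AOM/DSS (limma adjusted p from 4.79e-14 for Selenbp1 to 1.80e-04 for Aqp8) and stood lower still in WMW-H. Ms4a12 was the one above, at 5.97 ± 0.451, 10.3 ± 0.288 and 14.6 ± 0.952. Goblet cell genes lay above in 1 of 21 and below in 2, shares of 4.76% and 9.52% that were no more than about those of all tested genes, and none lay apart after GC and length correction. Fcgbp, a mucus protein (941 ± 10.8, 672 ± 6.25 and 508 ± 21.5), and the transcription factor Foxa3 (34.4 ± 1.93, 31.8 ± 2.29 and 23.1 ± 2.24) lay below, and Zg16, which aggregates bacteria in mucus, above (3156 ± 63.1, 2727 ± 23.1 and 3354 ± 69.3). S100g, an intestinal calcium-binding protein, averaged 19.0 ± 1.46, 9.02 ± 0.742 and 5.44 ± 0.635. Of 17 claudin and tight junction genes, 2 lay above and 2 below (11.8% each), near the background share, among them Cldn8 above (6.21 ± 0.649, 6.99 ± 0.749 and 12.4 ± 0.539) and Cldn3 below (349 ± 11.4, 379.9 ± 5.08 and 279.6 ± 11.9). The bile acid receptor Nr1h4 lay above, at 33.2 ± 1.27, 15.8 ± 0.585 and 37.1 ± 0.971.

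Growth genes gave mixed directions. Of 30 cell cycle genes, 2 lay above (6.67%) and 5 below (16.7%), beside 9.48% and 9.34% of all tested genes (median contrast -0.08). Pcna, the replication clamp, averaged 51.5 ± 1.75, 46.4 ± 1.804 and 67.6 ± 2.37, and Mki67, a marker of cycling cells, 19.4 ± 0.539, 16.9 ± 0.445 and 13.5 ± 0.984. Trp53 averaged 38.7 ± 0.837, 55.7 ± 2.63 and 33.3 ± 1.93, and its target Cdkn1a, an inhibitor of the cycle, 173 ± 3.57, 139.8 ± 1.89 and 107 ± 2.13. Feedback genes of NF-kB lay below in 4 of 18 and above in 1, among them Bcl3 (30.4 ± 0.995, 52.1 ± 2.01 and 24.9 ± 1.49) and Nfkb2 (17.6 ± 0.574, 24.04 ± 1.19 and 12.9 ± 0.538). After GC and length correction 1 of these 18 stayed below. Summed, the NF-kB list took 0.0502% of FPKM in Control, 0.0714% in AOM/DSS and 0.0488% in WMW-H, and the Control and WMW-H ranges overlapped. Several lists had no gene in the set in either direction. Among them were type I interferon response (28 tested), Wnt targets (27), enteric neurons and glia (19), Paneth cells (16), tuft cells (12) and mast cells (9). AOM/DSS and Control differed widely in several of these lists, which makes a place outside both groups harder to reach. Medians of AOM/DSS minus Control were -1.59 for the interferon list and 1.63 for the Wnt targets, with contrasts of 0.11 and -0.03.

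**Figure D4:**
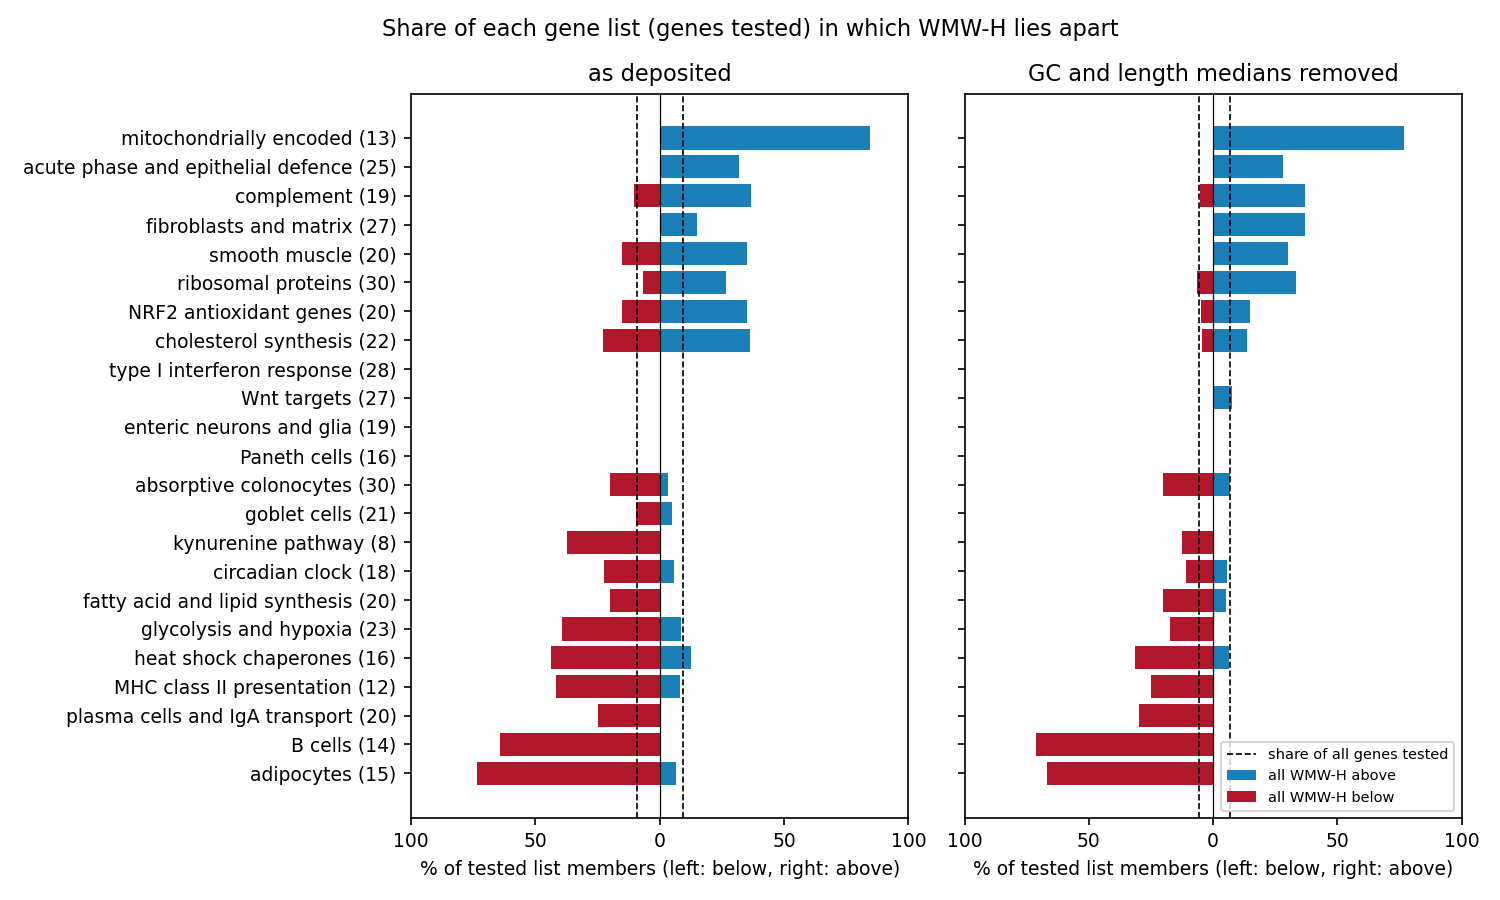
Share of the tested genes of 23 lists in which all WMW-H libraries lay above (blue, to the right) or below (red, to the left), with dashed lines at the share of all tested genes and the number tested in brackets. In the left panel mitochondrially encoded genes reach furthest above and adipocyte and B cell genes furthest below, and these lists keep their side in the right panel, where the medians of GC and length bins were removed.

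The GC content of the transcript, which the rule did not use, differed with direction. Its median was 45.3% for the genes above, 55.3% for the genes below and 50.02% for all tested genes. For the genes that set Control or AOM/DSS apart it was 49.7% and 51.7%. In the lowest of 10 equal classes of GC content, 15.3% lay above and 1.86% below. In the highest class, 0.465% lay above and 23.3% below. Median transcript length was similar, 3063 nucleotides above, 3164 below and 3282 for all. Promoter GC did not follow, with medians of 61% for 944 matched genes above and 61.7% for 950 below. The GC-related deviation was positive in every WMW-H library and negative in every AOM/DSS library. It is measured from the mean of all 15 libraries, so a positive value in one group goes with negative values elsewhere.

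When the median of each GC bin and then of each length bin was removed within libraries, a step chosen after seeing the data, 889 genes (6.89%) lay above and 749 (5.81%) below. Of the original genes, 624 above (51.0%) and 483 below (40.0%) kept their place and none changed side. Those kept included all 6 clustered Reg genes, with a contrast of 6.00 for Reg3a and 1.42 for Reg1. By list, the counts above and below became 10 and 0 of 13 mitochondrial genes, 7 and 0 of 25 acute phase genes, 7 and 1 of 19 complement genes and 10 and 0 of 27 fibroblast genes. They became 0 and 10 of 14 B cell genes, 0 and 6 of 20 plasma cell genes, 0 and 10 of 15 adipocyte genes and 0 and 3 of 12 MHC class II genes. Heat shock chaperones went to 1 and 5 of 16, immediate early genes to 1 and 3 of 26, clock genes to 1 and 2 of 18 and NRF2 genes to 3 and 1 of 20. Absorptive colonocyte genes came to 2 and 6 of 30, fatty acid synthesis genes to 1 and 4 of 20, and smooth muscle genes to 6 and 0 of 20. A correction of this kind also removes a real difference that follows GC content, and which of these it removed was not tested.

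**Figure D5:**
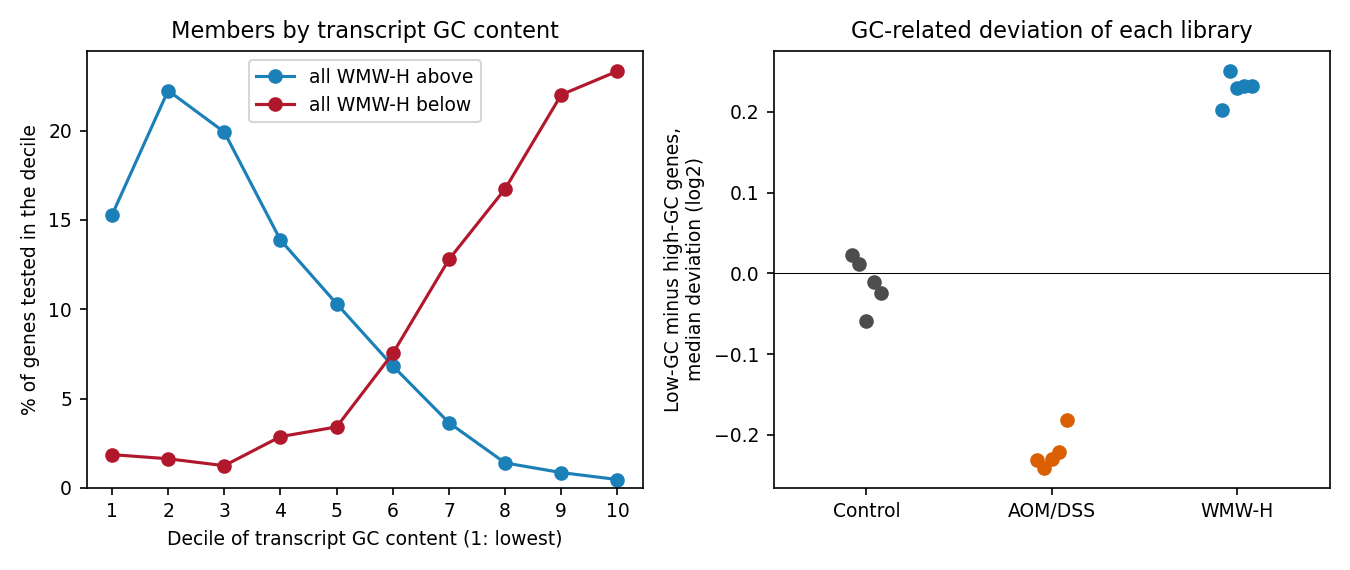
Left, the share of tested genes lying above (blue) or below (red) in each of 10 equal classes of transcript GC content, from lowest to highest. Right, for each library, the median deviation of low-GC genes minus that of high-GC genes, in log2 units from the mean of all 15 libraries. It lies between 0.20 and 0.25 in all 5 WMW-H libraries and below 0 in all 5 AOM/DSS libraries.

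At the edge of the rule, the closest genes inside were Ephx2 and Tmem201, whose WMW-H libraries cleared the others by 0.000207 and 0.000275 on the log2 scale. The closest outside were Tcaf3 and Sva, an antigen of the seminal vesicle. Both were listed at 0 in all WMW-H libraries and tied with Control libraries also at 0, while AOM/DSS averaged 7.01 ± 0.462 FPKM for Tcaf3 and 33.1 ± 2.97 for Sva (SD, n = 5). The expression of male accessory gland genes in AOM/DSS therefore lies outside the set by ties and overlaps, with 0 of 13 tested genes in either direction.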

How the data were processed

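RNA of mouse colon was sequenced in 15 libraries, 5 per group. Per the labels' protocols, RNA was extracted with Trizol, enriched with oligo(dT) beads, made into NEBNext Ultra libraries and sequenced on a NovaSeq 6000. Tools listed in the submitters' processing notes, with neither order nor settings, are HISAT2, RSEM, StringTie 1.3.1, Bowtie2 2.2.8 and fastp 0.18.0. The genome build is not given in the sources used here. The authors deposited one table of FPKM values, with library totals from 507895 to 535410.

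Values were taken as log2(FPKM + 1), which understates the change of low genes. A gene was tested if 5 or more libraries reached 1 FPKM. The model, in limma 3.58.1 (R 4.3.3), had one mean per group, a trended variance prior and Benjamini-Hochberg adjustment over 12917 genes, two-sided at 0.05. The steps were tested on simulated data. Depth was read from the low values of single-transcript genes of 800 to 6000 nucleotides, of which 86.3% to 90.9% came within 0.1 of a whole fragment per library. A gene of 1500 nucleotides at 1 FPKM then rests on 24.4 to 31.6 fragments. Whole fragments were not recovered for other genes, so no count model was used. Transcript GC and length came from GENCODE release M21, and names, positions and promoters from RefSeq.

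The gene set, the 63 gene lists and the comparisons were chosen with earlier results of these data known. Named genes were the 12 largest contrasts in each direction, without unnamed models, pseudogenes, receptor segments and repeated symbols. To these came up to 4 genes of each list described by size of contrast, list genes of opposite direction, Ido1, Ahr, Ahrr, Tiparp, Nqo1 and Cyp1a1, and the genes nearest the edge of the rule. The Reg and Ms4a families and the GAANNTTC motif were added after values were seen, and the lists to describe were picked with their counts in view. Alternatives covered the pseudocount, low-value filters, scaling, an exact rank test, a replicate block and leaving out each library, and 2 more were added after seeing the data. A few list genes are not reported here.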

Additional observations from a re-analysis of the deposited data

Results flagged for a closer look

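Of 417 sets of 5 libraries checked for one value far from the other 4, 31 (7.4%) had one, where chance alone gives about 1 in 20. Replicate 3 of WMW-H was the library concerned in 15 of them. Its mitochondrial share of FPKM was 15.3%, and its FPKM was high for mt-Co1 (28500), mt-Nd2 (2860), mt-Nd6 (1370), C3 (87.1), Dcn (119), Mylk (100), Chgb (118) and Gstm1 (199). It was low for Reg3b (674), Reg3g (117), S100g (4.33), Rpl11 (456), Rpl8 (561) and Igha (2370). In each of these genes except Gstm1, S100g, Rpl8 and Igha, WMW-H as a group lay above the other groups. Without this library, 1500 genes lay above and 1344 below.

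The other WMW-H libraries concerned were replicate 1 for Slc7a5 (10.4 FPKM) and replicate 2 for Hbb-bs (91.0). In Control they were replicate 1 for S100g (16.5), Zg16 (3040) and Selenbp1 (699), replicate 3 for Pcx (30.9), replicate 4 for Cyp2s1 (59.2), Il33 (2.70) and Dcn (67.1), and replicate 5 for H2-Ob (2.41). In AOM/DSS they were replicate 1 for Akr1c13 (74.3), replicate 2 for Cdkn1a (143), replicate 3 for Hbb-bs (57.6), replicate 4 for Cfb (45.8), and replicate 5 for Hspa1b (31.2) and Dcn (55.3).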

How the results depend on the processing

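The counts of genes lying apart stayed within 1.5 times under the other filters and scalings, but the genes themselves changed more. Median-of-ratios size factors kept 1036 of the 1224 genes above and 1019 of the 1207 below, and quantile normalization 1011 and 984. A common library total kept 1018 and 1179, and no gene changed side. The rule uses rank order, so another pseudocount cannot change the set. Leaving out 1 library can only add genes, so neither of these alternatives bears on stability. Leaving out 1 library gave 1250 to 1500 genes above and 1221 to 1344 below. With the mitochondrial genes left out, the genes below came to 787, those above that rose in AOM/DSS to 489 and those below that fell there to 134. With GC and length medians removed, the genes below came to 749, of which 176 rose in AOM/DSS and 186 fell. An exact rank test of the 5 WMW-H libraries against the 10 others pooled called 2206 genes higher and 2269 lower. Limma's test of the contrast called 3734 and 4227. The tests ask different questions, since pooling counts the difference between Control and AOM/DSS as spread. The part of this in the lower counts was not tested. Replicate numbers did not pair the libraries, since same-numbered libraries of different groups had correlated deviations of -0.047 to 0.030, and with a replicate block 3708 genes were called higher and 4197 lower. Of 4777 values of 208 named genes under the alternatives, 4460 moved by less than the replicate spread. Another 314 moved by more, 152 of these under GC and length correction. Changes of sign were counted only for named genes in the set, and 3 were found, under that correction. These were Smtn (0.01973), Slc39a4 (0.01067) and Tmem201 (0.03369), all negative as deposited. Depth limits the genes near the filter, where 1 FPKM rests on 24.4 to 31.6 fragments in a gene of 1500 nucleotides.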
